A study of Saccharomyces cerevisiae with 24 samples.

Results

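The comparison set a strain of Saccharomyces cerevisiae lacking RPL22A, written rpl22a, against the wild-type strain BY4741, written wt. It rests on 4 of the 24 arrays of the series, 2 biological replicates of rpl22a and 2 of wt, and on all 9275 non-control probe sets. The study asked whether the paralogous copies of duplicated ribosomal protein genes have different effects in the cell, and so it profiled 11 single deletions and their isogenic wild type on Affymetrix YG-S98 arrays. All strains were grown in rich YPD medium at 30 °C in 50 mL cultures and harvested in early log phase. The labels name BY4741 only for the wt samples and do not say how the genes were deleted. BY4741 is a haploid of mating type a that is auxotrophic for histidine, leucine, methionine and uracil. Set beside rpl22a were the 2 arrays of rpl22b, which lacks the other copy, and the 20 arrays of all 10 other deletions (rpl7a, rpl7b, rpl12a, rpl12b, rpl14a, rpl22b, rps0a, rps0b, rps18a and rps18b).

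Rpl22 is a protein of the large ribosomal subunit, and yeast makes it from a pair of genes, RPL22A and RPL22B, that encode near-identical proteins. Both genes carry an intron, and Rpl22 protein is known to bind the intron of RPL22B pre-mRNA and to hold back its splicing. RPL22A is the more highly expressed copy, and Rpl22 is not essential for growth in yeast. A pair of nutrient circuits recurs below. Gcn4 is the transcription factor that raises amino acid synthesis genes when its own mRNA is translated more, which depends on ribosome initiation at upstream reading frames, and Pho4 is the factor that raises the phosphate regulon when phosphate inside the cell is scarce.

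Each value is the deposited intensity of a probe set, a linear and unitless brightness. Median intensities were 49.3 and 45.2 in the rpl22a arrays and 47.6 and 52.3 in the wt arrays. The background of an array, taken as the 95th percentile of 19 control probe sets, was 8.56 and 11.75 in rpl22a and 8.94 and 11.81 in wt. Between 79.9% and 83.8% of probe sets lay above it in these 4 arrays. The rpl22a replicates correlated at 0.974 (Pearson's r of log2 values over probe sets), while rpl22a replicate 1 correlated at 0.975 with rpl12a replicate 1. The 2 wt replicates correlated at 0.980, and wt replicate 2 at 0.981 with rpl7b replicate 2. A difference below is a log2 difference, rpl22a minus wt, with its standard error (SE) from 1 limma fit over all 24 arrays, and a probe set is called when its adjusted p is under 0.05. In such bulk RNA, fewer cells with a transcript and less of it per cell cannot be told apart.

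The deleted gene was all but silent. RPL22A (YLR061W, chromosome XII) had intensities of 50.5 and 67.6 in rpl22a, against 11933.2 and 11151.1 in wt. The difference was -7.49 ± 0.15 (SE, n = 2 each, limma adjusted p = 2.47e-13), a fall to a level 180-fold lower. Both rpl22a values still lay above the array background. The 20 other deletion arrays gave 8426.5 to 11518.2, so RPL22A was low only in the strain labelled as lacking it.

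The remaining copy was higher. RPL22B (YFL034C-A, chromosome VI) had intensities of 2175.3 and 1650.1 in rpl22a, against 804.7 and 877.2 in wt. The groups did not overlap, and the difference was 1.48 ± 0.19 (limma adjusted p = 0.00106), or 2.78-fold. With any 1 of the 4 arrays left out it was 1.35 to 1.60 and stayed called, with adjusted p of 0.00561 to 0.016. Without normalization between arrays it was 1.17 and not called (adjusted p = 0.157). The 9 other strains with an intact RPL22B gave 183.7 to 762.2, all below the wt arrays, and both arrays of rpl22b read 0.9. RPL22B was therefore higher in the rpl22a arrays than in any other array of the series, yet remained far under the RPL22A intensity of wt, a comparison of different probe sets that sets no ratio between the copies.

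**Figure D1:**
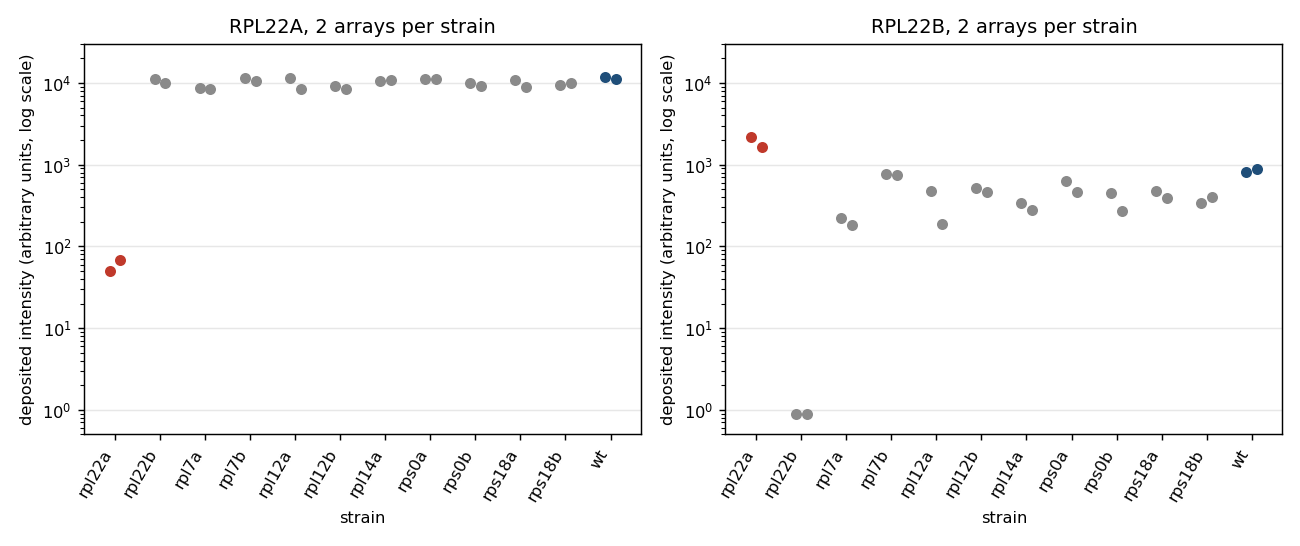
Deposited intensity (log axis) of RPL22A and RPL22B in each of the 24 arrays, with rpl22a at the left in red, the other deletions in grey and wt at the right in blue; each point is 1 array. RPL22A reads 50.5 and 67.6 in rpl22a against 8426.5 or more elsewhere, and RPL22B reads 2175.3 and 1650.1 in rpl22a against 877.2 or less elsewhere.

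Between rpl22a and wt, 227 of 9275 probe sets (2.45%) were called as different. Of these 132 were higher (1.42%) and 95 lower (1.02%), and 1400 had an unadjusted p under 0.05. The rpl22a and wt arrays did not overlap at any of the 227, whereas 4568 of all 9275 probe sets had no overlap. The median of all probe sets was 0.00, and 145 of the called ones differed by more than 1 on the log2 scale. At the level of genes, with 1 probe set a gene, 98 of 5656 were higher and 68 lower (2.93% called). The excess of higher calls depended on the scaling: without normalization between arrays, which moved the median of all probe sets to -0.10, 33 were higher and 49 lower. With median centring of each array 79 were higher and 84 lower. The excess was also absent with either rpl22a replicate left out. The count also depended on single arrays. It fell without rpl22a replicate 2 or either wt replicate, and rose somewhat without rpl22a replicate 1.

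**Figure D2:**
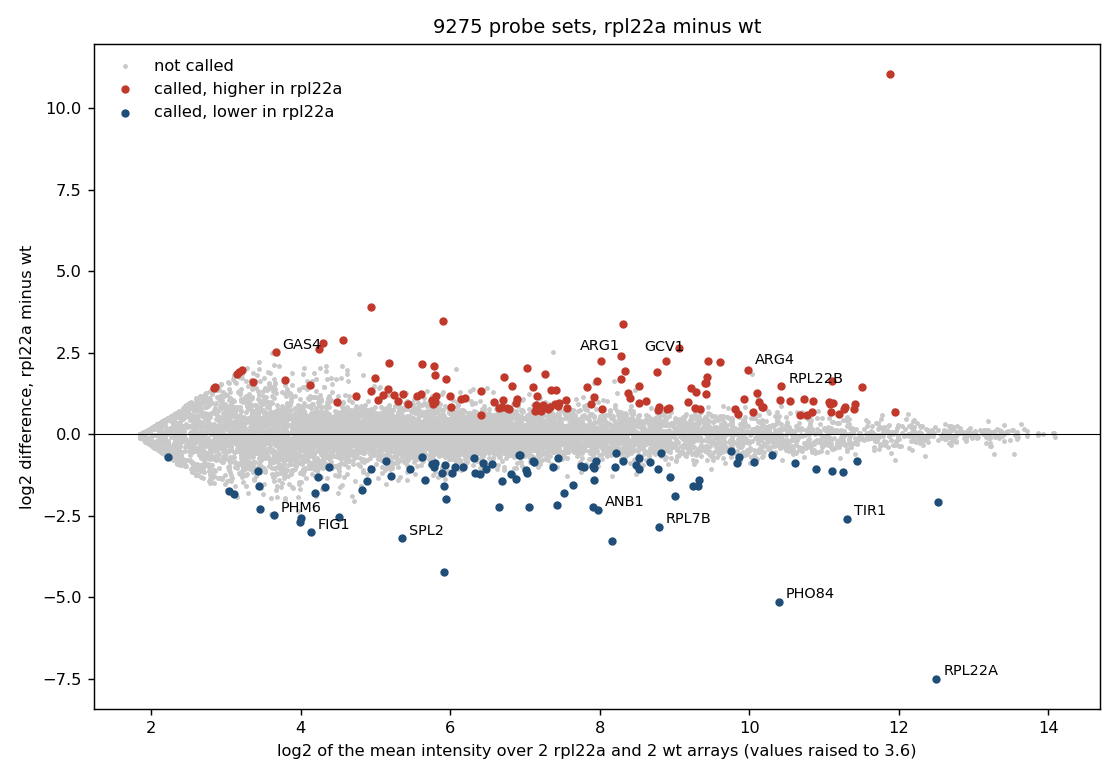
Log2 difference, rpl22a minus wt (vertical axis), against the log2 of the mean intensity of the 4 arrays, with values raised to 3.6 (horizontal axis). Of 9275 probe sets the 132 called higher are red, the 95 called lower blue and the rest grey. RPL22A at -7.49 and PHO84 at -5.13 lie lowest, and the point at 11.05 is an unnamed probe set not above background in wt, so that the floor sets its height.

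Among the 12 highest with 1 gene name were ARG1, ARG4 and ARG7 of arginine synthesis, GCV1 of glycine breakdown and both probe sets of the mitochondrial gene COB. Among the 12 lowest, besides RPL22A itself, were the phosphate genes PHO84, SPL2 and PHM6, the ribosomal protein gene RPL7B and the wall mannoprotein gene TIR1. Of the 23 named probe sets other than RPL22A, 10 stayed called with each of the 4 arrays left out in turn and 7 were lost with every one of them. Of 77 probe sets named here or called in a list, 29 stayed called without normalization between arrays and 49 with median centring.

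Amino acid synthesis genes made up the main group of higher genes. A list of GCN4 and its direct targets across pathways had 25 measured genes, of which 13 were higher, none was lower and 12 did not pass. Its median difference was 0.85 and 23 of 25 were above 0, beside a median of -0.01 and 47.9% above 0 over all 5656 genes. The median was 0.77 with median centring of each array and 0.70 without normalization, where the calls fell to 3 (ARG4, LYS1 and PCL5).

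Arginine synthesis genes showed the largest differences of that group. Of 8 measured genes 4 were higher, none lower, with a median of 1.75. ARG1, argininosuccinate synthetase, had intensities of 437.1 and 411.0 in rpl22a, against 97.5 and 94.5 in wt (2.26 ± 0.54, limma adjusted p = 0.0441). ARG4, argininosuccinate lyase, had 1708.1 and 1397.2 in rpl22a, against 409.6 and 520.9 in wt (1.98 ± 0.13, adjusted p = 7.71e-07). ARG7, the mitochondrial ornithine acetyltransferase, had 524.9 and 482.3 in rpl22a, against 137.8 and 153.1 in wt (1.93 ± 0.17, adjusted p = 3.23e-05). All 3 were clear of the wt arrays, but only ARG4 and ARG7 stayed called whichever of the 4 arrays was left out. ARG1 was lost each time, with adjusted p of 0.116 to 0.193. CPA1, the small subunit of the arginine-specific carbamoyl phosphate synthetase, had 859.4 and 1100.2 in rpl22a, against 368.6 and 402.2 in wt (1.57 ± 0.25, adjusted p = 0.00409), and was lost only without rpl22a replicate 2 (adjusted p = 0.0568). ARG3, ornithine carbamoyltransferase, had 30.7 and 29.9 in rpl22a, against 10.7 and 5.0 in wt, and did not pass (adjusted p = 0.0627). ORT1 at 0.91, ARG8 at 0.56 and ARG2 at -0.05 did not pass either.

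Other targets rose with them. LYS1, the last enzyme of lysine synthesis, had intensities of 718.1 and 622.3 in rpl22a, against 177.7 and 223.5 in wt (1.92 ± 0.19, limma adjusted p = 0.000104). PCL5, a cyclin that directs the breakdown of Gcn4, had 554.8 and 380.0 in rpl22a, against 157.3 and 156.8 in wt (1.68 ± 0.18, adjusted p = 0.000195). HIS5, an aminotransferase of histidine synthesis, had 282.4 and 196.4 in rpl22a, against 100.1 and 101.3 in wt (1.37 ± 0.22, adjusted p = 0.00465). These 3 and HOM2 and HOM3, which act early on the shared path to methionine and threonine (1.03 ± 0.15 each), stayed called with any array left out. GCN4 itself had 4691.8 and 4264.3 in rpl22a, against 3218.3 and 3556.7 in wt (0.68 ± 0.12, adjusted p = 0.0089). Its call was lost without wt replicate 1 (adjusted p = 0.0815), without rpl22a replicate 2, with median centring (0.312) and without normalization (0.514). TRP4 (1.13), ILV6 (1.00) and HIS1 (0.85) were also higher, each lost with at least 1 array left out. ADE4, at 7.3 and 4.4 in rpl22a, not above background, and 18.4 and 14.4 in wt, and ILV1 at -0.20 did not pass (adjusted p = 0.17 and 0.793).

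By pathway, no amino acid synthesis list held a lower gene. Branched-chain synthesis had 5 higher of 11, with a median of 0.57. There LEU4, the committed step to leucine, had 2985.1 and 3267.0 in rpl22a, against 1295.9 and 1229.7 in wt (1.62 ± 0.33, limma adjusted p = 0.0187), and ILV6, LEU1 (0.92), ILV3 (0.77) and BAT1 (0.58) were higher too. LEU4 stayed called with 1 of the 4 arrays left out and BAT1 with none, and each of these 5 calls was lost with at least 1 array left out. Histidine synthesis had 2 higher of 6 with a median of 0.60, and lysine synthesis 3 of 9 with a median of 0.47, where LYS12 (0.98) and LYS5 (0.89) joined LYS1. Aromatic synthesis had 4 higher of 13 with a median of 0.43. Its entry enzyme ARO3 had 1743.9 and 1185.6 in rpl22a, against 693.7 and 770.7 in wt (1.28 ± 0.19, adjusted p = 0.00288). ARO1, which carries several consecutive steps of the shikimate path, had 2848.7 and 2566.0 in rpl22a, against 1783.1 and 1726.7 in wt (0.96 ± 0.12, adjusted p = 0.000771). Both stayed called with any array left out, while TRP4 and ARO8 (0.61) did not, and without normalization of the calls in these 4 lists LYS1 alone held. The gene now named ARO5 (YGL117W) was in no list and had 112.3 and 65.0 in rpl22a, against 21.3 and 20.8 in wt (2.08 ± 0.31, adjusted p = 0.00242), called with any array left out.

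Glycine cleavage genes rose together. This mitochondrial complex breaks glycine down to a one-carbon unit, carbon dioxide and ammonia. GCV1 had intensities of 852.1 and 670.7 in rpl22a, against 194.5 and 169.0 in wt (2.24 ± 0.25, limma adjusted p = 0.000357). GCV2 had 791.5 and 879.2 in rpl22a, against 372.1 and 345.7 in wt (1.43 ± 0.25, adjusted p = 0.00804). GCV3 had 4047.5 and 3903.6 in rpl22a, against 1927.7 and 1721.6 in wt (1.46 ± 0.25, adjusted p = 0.00698). All 3 were more than 2-fold higher with no overlap, and GCV1 alone of them stayed called with any array left out and without normalization. The serine, glycine and one-carbon list had 4 higher of 15, the fourth being GLY1 (0.68), and its median of 0.12 fell to -0.02 with median centring and -0.10 without normalization.

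Not all amino acid genes moved. In the methionine and sulfur list HOM2, HOM3 and MET28 (0.99) were higher of 33 and none was lower, with a median of 0.10, and MET28 was lost with each array left out (adjusted p = 0.099 to 0.209). The sulfate assimilation genes MET3 at -0.51 and MET14 at -0.40 did not pass. Of 19 amino acid permeases BAP2 (0.85) and LYP1 (0.68) were higher, and the median was 0.08, but -0.07 on values not normalized. Both calls were lost with 3 of the 4 arrays left out (up to 0.125 and 0.282), with median centring (0.194 and 0.417) and without normalization (0.418 and 0.685). Of 5 genes of aromatic amino acid breakdown only ARO10, phenylpyruvate decarboxylase, passed. It had 256.0 and 217.1 in rpl22a, against 58.0 and 87.2 in wt (1.87 ± 0.37, limma adjusted p = 0.016), and stayed called with 1 of the 4 arrays left out. In arginine and proline breakdown 0 of 8 passed, and in purine synthesis and salvage 0 of 24, with a median of -0.16. HIS3, which BY4741 carries as a partial deletion, had 560.6 and 493.0 in rpl22a, against 200.8 and 220.5 in wt (1.48 ± 0.21, adjusted p = 0.00201). HIS3 stayed called with any array left out, and neither it nor ARO10 was called without normalization (adjusted p = 0.112 and 0.0531). LEU2 read 28.3 and 20.9 in rpl22a and 27.9 and 15.0 in wt, and MET17 and URA3 were not above background in either strain.

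**Figure D3:**
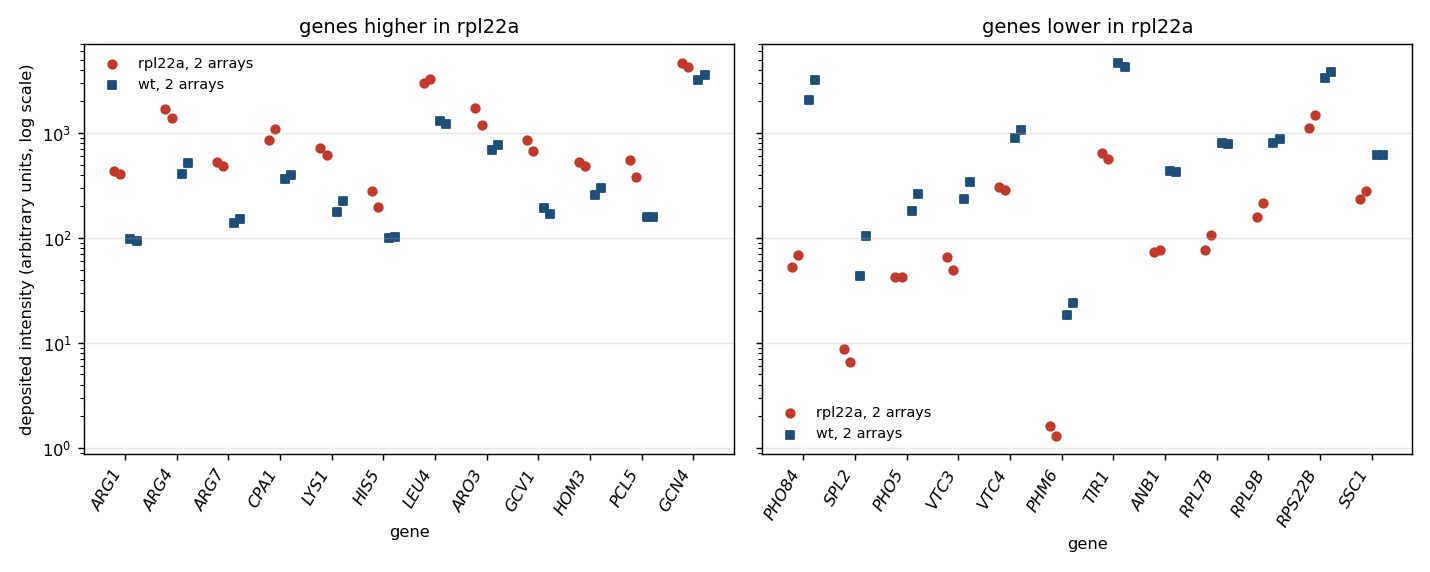
Deposited intensity (log axis) of 12 genes higher and 12 lower in rpl22a; circles are the rpl22a arrays, left, and squares the wt arrays, right, with 2 arrays a strain. ARG4 reads 1708.1 and 1397.2 in rpl22a against 409.6 and 520.9 in wt, and PHO84 reads 53.0 and 68.8 in rpl22a against 2076.8 and 3180.7 in wt.

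Phosphate genes made up the main group of lower genes. PHO84, the high-affinity phosphate transporter, had intensities of 53.0 and 68.8 in rpl22a, against 2076.8 and 3180.7 in wt (-5.13 ± 1.12, limma adjusted p = 0.0289). SPL2, which restrains low-affinity phosphate uptake, had 8.8 and 6.6 in rpl22a, against 43.2 and 105.0 in wt (-3.18 ± 0.63, adjusted p = 0.0167), and was above background in 1 of the 2 rpl22a arrays. Both genes were low in both rpl22a arrays with no overlap. PHO84 was lost with each array left out (adjusted p = 0.0993 to 0.149) and SPL2 with 2 of them (up to 0.144). PHO84 also varied widely among the other deletions, from 26.7 in rpl7a to 7490.8 in rpl14a, and rps18a replicates read 60.2 and 1478.1. In this list of 7 genes, which counts SPL2 with the transporters, PHO84 and SPL2 were the only calls, with a median of -0.43. PHO90 (0.26), PHO91 (0.12), PHO87 (-0.27) and PHO89 (-0.43) did not pass, while GIT1 was not above background in either strain.

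Some phosphatase and polyphosphate genes fell too. Of 16 measured genes of that list 6 were lower and none higher, with a median of -0.47. PHO5, the main repressible acid phosphatase, had intensities of 42.9 and 42.6 in rpl22a, against 182.2 and 262.3 in wt (-2.23 ± 0.35, limma adjusted p = 0.00337). VTC3, a subunit of the vacuolar polyphosphate polymerase, had 65.4 and 49.8 in rpl22a, against 235.5 and 338.6 in wt (-2.15 ± 0.34, adjusted p = 0.00428). Its catalytic partner VTC4 had 305.9 and 288.8 in rpl22a, against 895.3 and 1072.8 in wt (-1.41 ± 0.27, adjusted p = 0.0155), and a second probe set of VTC4 differed by -1.30. PHM6 had 1.6 and 1.3 in rpl22a, not above background, against 18.5 and 24.1 in wt, at least 2.22-fold lower (adjusted p = 0.00204). PHO81, the inhibitor of the Pho80-Pho85 kinase, had 165.3 and 107.5 in rpl22a, against 282.2 and 332.3 in wt (-1.01 ± 0.23, adjusted p = 0.0385), and VTC2 differed by -0.82. PHO5, VTC3 and PHM6 stayed called with any array left out, whereas PHO81 and VTC2 did not (up to 0.269 and 0.236). Of the sets of VTC4 the first was lost with each array left out (up to 0.105) and the second with none (adjusted p = 0.0125 to 0.0351). PHO81 and VTC2 were also lost without normalization. The dim PHM6 was lost with the floor raised to the 25th percentile (adjusted p = 0.209), as was SPL2 (0.0696). A probe set shared by PHO11 and PHO12, named after its values were seen, had 50.4 and 43.1 in rpl22a, against 392.9 and 662.6 in wt (-3.28 ± 0.45, adjusted p = 0.00159), and stayed called with any array left out. PHO4 at 0.12, VTC1 at -0.48 and PHO3 at -0.47 did not pass.

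The ribosomal protein mRNAs measured had medians near 0 on normalized values, with a few single copies lower. Of 81 large and 57 small subunit genes, 47 and 34 had a probe set with 1 gene name. Of those 47, RPL22B was higher and RPL22A, RPL7B and RPL9B lower, and of the 34 RPS22B was lower. The medians were 0.01 and -0.03. With median centring they were -0.11 and -0.15, against -0.02 for all probe sets. Without normalization they were -0.18 and -0.23, against -0.10 for all probe sets. RPL7B, the minor copy of the RPL7 pair, had intensities of 76.6 and 105.7 in rpl22a, against 798.4 and 784.4 in wt (-2.84 ± 0.57, limma adjusted p = 0.0169). In the other deletions this set ran from 1.1 in rpl7b, which lacks the gene, to 5680.9 in rpl7a. It was also low in rpl12a, at 99.2 and 145.9. The second probe set of RPL7B had 95.3 and 59.6 in rpl22a, against 358.5 and 449.6 in wt (-2.22, adjusted p = 0.00258). Both sets were low in both rpl22a arrays, and the second stayed called with any array left out, whereas the other was lost with each array left out (adjusted p = 0.0568 to 0.12). Copies this alike may share probes, so their levels are uncertain where a probe set reads more than 1 copy. A probe set shared by RPL7A and RPL7B differed by -0.20 (adjusted p = 0.587).

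RPL9B and RPS22B, each a copy of a duplicated pair, were lower too. RPL9B had intensities of 159.6 and 216.9 in rpl22a, against 798.6 and 882.3 in wt (-1.88 ± 0.29, limma adjusted p = 0.00321), and stayed called with any array left out. All 20 other deletion arrays of RPL9B also lay below wt, at 175.1 to 688.7, so a lower level was not particular to rpl22a. The paralog RPL9A differed by -0.12 (adjusted p = 0.888). RPS22B had 1121.3 and 1497.5 in rpl22a, against 3353.3 and 3779.1 in wt (-1.16 ± 0.19, adjusted p = 0.00465), also called with any array left out, and its other sets differed by -1.58 and -1.05. Over the other deletions the first RPS22B set ran from 758.8 in rps18b to 3379.7 in rpl14a, so other strains were as low as rpl22a. For the pair RPL8A and RPL8B the probe sets disagreed. One shared set had 2107.3 and 1936.2 in rpl22a, against 9651.4 and 9876.1 in wt (-2.07 ± 0.13, adjusted p = 6.76e-07), called with any array left out and below the 2912.3 to 8532.2 of the other deletions. The other RPL8 sets differed by -0.38 (adjusted p = 0.0688) and -0.15 and were not called. RPS10A likewise had 1 set at -1.13 (adjusted p = 0.0387), lost with each array left out, and 1 at -0.11 that did not pass. The RPL8 and RPS10A sets were named after their values were seen.

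Ribosome assembly genes had medians above 0 and few calls. Of 67 genes of large subunit assembly 3 were higher and none lower, with a median of 0.32 and 56 above 0. Over all genes 2.93% were called. NOG2, a GTPase of late nuclear assembly (0.77 ± 0.18, limma adjusted p = 0.0416), TIF6, which keeps the subunits apart (0.77 ± 0.18, adjusted p = 0.0354), and NSA2 (0.76 ± 0.18, adjusted p = 0.0386) were the calls, and each was lost with at least 3 of the 4 arrays left out in turn. The small subunit processome, which builds the other subunit, had 2 higher of 52, UTP9 (1.05) and IMP3 (0.96), with a median of 0.17. Without normalization the medians were 0.14 and 0.06. Genes of RNA polymerases I and III had 0 calls of 37 and a median of 0.12, or -0.02 without normalization. Proteasome genes had 0 of 37 and a median of 0.19, or -0.03 without normalization.

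Small nucleolar RNAs, the guides of ribosomal RNA modification, had a median below 0 and few calls. Of 57 measured, in a list added after the data were seen, 3 were lower and none higher, with a median of -0.25, but the cDNA was primed with oligo-dT, and these RNAs lack a lasting poly(A) tail. All 3, SNR75, SNR76 and SNR77, belong to the SNR72 to SNR78 cluster, which is transcribed as 1 precursor. SNR76 had intensities of 11.4 and 2.3 in rpl22a, against 39.5 and 37.0 in wt (-2.53 ± 0.39, limma adjusted p = 0.00339), and was above background in 1 rpl22a array. SNR75 had 50.7 and 71.2 in rpl22a, against 135.2 and 216.1 in wt (-1.37 ± 0.33, adjusted p = 0.0441). SNR77 had 91.3 and 156.3 in rpl22a, against 315.0 and 412.4 in wt (-1.40 ± 0.34, adjusted p = 0.046). SNR76 stayed called with any array left out, whereas SNR75 was lost with each of them and SNR77 with 3 (up to 0.255 and 0.229), and both were lost without normalization. SNR72, SNR73 and SNR74 differed by -0.69 to -0.99 and did not pass, and SNR78 was not above background in either strain. SNR44, which lies in an intron of RPS22B, had 155.5 and 242.8 in rpl22a, against 490.6 and 549.9 in wt (-1.20 ± 0.35, adjusted p = 0.0955), and did not pass. Of 91 transfer RNA genes, likewise added, 3 were lower and none higher, with a median of -0.21. These counts and those of small nucleolar RNAs stand beside 2.93% of all genes called. YNCC0010C read 1.7 and 6.1 in rpl22a, against 27 and 27.5 in wt, at least 2.83-fold lower (adjusted p = 0.0347). None of the 3 (YNCC0010C, YNCL0009C and SUF23) was above background in rpl22a, and YNCC0010C and SUF23 were lost with each array left out.

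Signal from the mitochondrial genome was retained. The markers of mitochondrial DNA included COX1, at 1692.0 and 1184.4 in rpl22a and 1061.6 and 1429.8 in wt, and OLI1, at 2718.0 and 3002.5 in rpl22a and 3852.8 and 4121.1 in wt. Neither passed (0.57, limma adjusted p = 0.13, and -0.29, adjusted p = 0.498). COB, the gene of cytochrome b, passed with both of its sets. One read 50.8 and 106.5 in rpl22a, against 10 and 29.2 in wt (2.16 ± 0.44, adjusted p = 0.0205). The other read 21.3 and 48.8 in rpl22a, against 4.7 and 4.3 in wt, where it was not above background, at least 3.44-fold higher (adjusted p = 0.00555). Each COB set was lost with 2 of the 4 arrays left out (up to 0.22 and 0.0738). A probe set shared by COX1 and its intron-encoded reading frames, named after its values were seen, had 61.3 and 53.9 in rpl22a, against 7.4 and 22 in wt (2.19 ± 0.34, adjusted p = 0.00336), called with any array left out. Of the 8 mitochondrially encoded protein genes 6 were above background in rpl22a or wt. Among the 8, 1 was called, with a median of 0.68. That median was 0.94 in rps18b, 0.65 in rpl14a, 0.56 in rpl7a and 0.00 to 0.43 in the other deletions. A median above 0 was therefore not particular to rpl22a. Nuclear-encoded oxidative phosphorylation genes had 0 calls of 41 and a median of 0.05, or -0.12 without normalization. Mitochondrial ribosomal protein genes had 1 lower of 72, MRPL13 (-0.83), with a median of -0.19. MRPL13 stayed called with 2 of the 4 arrays left out and was not called without normalization (adjusted p = 0.202). These list counts stand beside 2.93% of all genes called.

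The labelled cell type was checked with mating genes. Of 7 a-specific genes MFA1, a pheromone precursor, read 5613.3 and 5817.9 in rpl22a and 6031.4 and 5353.8 in wt, and STE2, the receptor of the other pheromone, read 643.6 and 624.8 in rpl22a and 549.4 and 686.4 in wt. BAR1, the protease that degrades alpha factor, was the 1 gene called, with 695.5 and 533.1 in rpl22a, against 1115.0 and 1370.3 in wt (-0.69 ± 0.15, limma adjusted p = 0.0331). That call held with 1 of the 4 arrays left out (up to 0.226) and was lost with median centring (0.0573) and without normalization (0.138). The 4 alpha-specific genes gave no call, with MF(ALPHA)1 at 37.2 and 34.0 in rpl22a and 30.7 and 26.2 in wt. All 4 were above background in rpl22a or wt, and SAG1 read 87.7 and 101.4 in rpl22a and 83 and 101.7 in wt. Of 30 genes of pheromone response and fusion FIG1 alone was called, beside 2.93% of all genes, and the list median was -0.11. FIG1, a membrane protein made during mating, read 3.1 and 2.7 in rpl22a, not above background, against 24.4 and 38.6 in wt, at least 3.19-fold lower (adjusted p = 0.0335), and was lost with each array left out (0.0909 to 0.177).

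Genes outside these groups gave scattered calls, with list counts to be read beside the 2.93% of all genes called. TIR1, a wall mannoprotein of cold and anaerobic growth, had intensities of 649.7 and 568.2 in rpl22a, against 4648.1 and 4251.8 in wt (-2.59 ± 0.28, limma adjusted p = 0.000275), and was 1 of 13 in its list to pass. ANB1, the copy of translation factor eIF5A made under low oxygen, had 73.4 and 77.3 in rpl22a, against 432.6 and 422.1 in wt (-2.31 ± 0.32, adjusted p = 0.00176), and was 1 of 36 translation factor genes to pass. Both stayed called with any array left out. Neither was low in rpl22a alone. Over the other deletions TIR1 ran from 553.3 in rpl7a to 5076.3 in rpl12b. ANB1 lay below wt in all 20 other deletion arrays, from 50.6 in rpl7a to 362.3 in rpl22b. SSC1, the mitochondrial Hsp70, had 236.9 and 282.8 in rpl22a, against 620.5 and 616.3 in wt (-1.05 ± 0.16, adjusted p = 0.00282), in a list of 26 chaperone genes with a median of -0.19 and no other call, and was not called without normalization (0.0597). TDH1, a glyceraldehyde-3-phosphate dehydrogenase, had 62.7 and 89.0 in rpl22a, against 345.2 and 240.3 in wt (-1.79 ± 0.30, adjusted p = 0.00509). It was 1 of 30 glycolytic genes to pass, and was lost without wt replicate 1 (adjusted p = 0.0734).

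Of the higher genes outside the amino acid pathways, IZH4, a membrane protein tied to zinc homeostasis, had intensities of 200.6 and 212.4 in rpl22a, against 50.9 and 57.3 in wt (2.03 ± 0.25, limma adjusted p = 0.000756). HPF1, a wall mannoprotein, had 1008.1 and 1494.0 in rpl22a, against 285.3 and 331.5 in wt (2.22 ± 0.38, adjusted p = 0.00676). IZH4 stayed called with any array left out, and HPF1 with 2 of the 4 arrays left out. SNT309, a member of the Prp19 splicing complex, read 27.3 and 38.6 in rpl22a, against 4.2 and 6.0 in wt, at least 3.41-fold higher (adjusted p = 0.0374). GAS4, a wall glucan enzyme of spores, read 17.7 and 25.8 in rpl22a, against 3.3 and 3.2 in wt, at least 2.21-fold higher (adjusted p = 0.0134). USV1, a stress transcription factor, read 13.6 and 16.4 in rpl22a, against 0.9 and 1.6 in wt, at least 1.5-fold higher (adjusted p = 0.0126). These 3 were not above background in wt and were lost when arrays were left out, with adjusted p of up to 0.218, 0.126 and 0.101. Likewise not above background, but in rpl22a, were the lower sets of YER188C-A and BDS1, at least 2.87-fold and 1.93-fold lower (adjusted p = 0.00479 and 0.0167), while the other sets named for these genes were not called.

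Smaller changes touched single members of other lists, at shares to be read against the 2.93% of all genes called. Higher were ATR1 (1.45) and PDR16 (0.85) of 17 drug transporter genes, ISU1 (1.25) and ISU2 (1.56), which assemble iron-sulfur clusters, of 29 iron genes, PYC2 (0.78), pyruvate carboxylase, of 25 genes of the citrate and glyoxylate cycles, AAT2 (0.79) of 17 glutamate and nitrogen genes and HTB2 (0.68) of 14 cyclin and histone genes. Lower were MDH2 (-0.71) of the citrate list, URA1 (-0.87) of 11 pyrimidine genes, CKI1 (-1.01) of 17 inositol and phospholipid genes and PGM1 (-0.58) of 22 glycogen and trehalose genes. Of these PYC2 alone stayed called with any array left out, but it was lost with median centring (adjusted p = 0.161) and without normalization (0.395). No gene passed among the 31 of the general stress response (median -0.20), 14 of G2 and mitosis, 13 of daughter-cell separation, 25 of ergosterol synthesis, 15 hexose transporters and 7 subtelomeric COS genes. Of the 10 named genes nearest RPL22A, 0 passed, and probe sets with no gene name have no chromosome position here. One of these unnamed sets, 10271_at, is numbered between the sets of RPL22A and its neighbour BMT6, and its values are given below. Among the 10, the largest differences were at SHM2 (0.69 ± 0.21, limma adjusted p = 0.106) and PET309 (-0.64). SHM2, a serine hydroxymethyltransferase, passed without rpl22a replicate 1 (0.95, adjusted p = 0.0493). Chromosome means over the 16 nuclear chromosomes ran from -0.10 for XII to 0.09 for VI.

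Loss of RPL22A and loss of RPL22B gave different profiles. Against rpl22b directly, rpl22a differed at 262 of 9275 probe sets (2.82%), 161 higher (1.74%) and 101 lower (1.09%). The rpl22b strain differed from wt at 2 (0.0216%), RPL22B, which was lower (0.0108%), and an unnamed probe set that was higher (0.0108%), with 400 at an unadjusted p under 0.05. Both contrasts with wt share its 2 arrays, so the direct contrast is the test of the difference. RPL22B itself was at least 160-fold higher in rpl22a than in rpl22b. ARG1 had intensities of 437.1 and 411.0 in rpl22a, against 83.7 and 55.1 in rpl22b (2.55 ± 0.54, limma adjusted p = 0.023). ARO5 had 112.3 and 65.0 in rpl22a, against 16.7 and 12.6 in rpl22b (2.46 ± 0.31, adjusted p = 0.000715). PHO84 had 53.0 and 68.8 in rpl22a, against 3200.9 and 2749.7 in rpl22b (-5.64 ± 1.12, adjusted p = 0.0152). For ARG1 and ARO5 the rpl22b arrays lay below those of wt, and at PHO84 they lay in or just above its range. ARO10 (2.31), COB (2.38), SPL2 (-3.92) and RPL7B (-3.18) differed in the same sense, with RPL7B at 76.6 and 105.7 in rpl22a, against 1367.9 and 521.9 in rpl22b. ARG1 and PHO84 were lost with each array left out (up to 0.119 and 0.0788). By list, 13 of 25 Gcn4 targets were higher and none lower than in rpl22b.

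Against the mean of the other 10 deletions, in which no wt array enters, rpl22a differed at 167 probe sets (1.8%), 98 higher (1.06%) and 69 lower (0.744%). Both rpl22a arrays lay above all 20 other deletion arrays at 120 of 9275 probe sets (1.29%) and below all of them at 44 (0.474%), on normalized values that include probe sets at the floor. By that measure 9 of 25 Gcn4 list genes (36%) lay above every other deletion, namely ARG1, ARG3, ARG4, HIS5, HOM2, LEU4, LYS1, ODC2 and TRP4. So did 5 of 8 arginine genes and GCV1, GCV2 and GCV3. Deposited intensities did not keep that order for ARG4 and LYS1. ARG4 read 1904.3 and 1258.7 in rpl14a, against 1708.1 and 1397.2 in rpl22a. LYS1 read 665.2 and 447.4 in rpl14a, against 718.1 and 622.3 in rpl22a. The differences from the mean were 2.96 ± 0.14 for RPL22B (2.29 with rpl22b out of the mean), 2.71 ± 0.40 for ARG1 (limma adjusted p = 0.00269), 2.01 ± 0.13 for ARG7 (adjusted p = 4.86e-07), 1.93 ± 0.23 for ARO5 and 1.80 ± 0.10 for ARG4 (adjusted p = 8.2e-08). ARG1 was lost with 1 of the 2 rpl22a arrays left out (0.0552). No gene of the phosphate lists that was above background in rpl22a lay below every other deletion, and PHM6, at the floor in rpl22a and in 1 or more of the other arrays, has no order among them. FCY21, which resembles purine-cytosine permeases, had 23.8 and 22.8 in rpl22a, against 37.5 to 132.9 in the other deletions (-1.69 ± 0.20, adjusted p = 0.00041). TOM71, a receptor of mitochondrial import, was also below all of them and near background (-1.22), and was lost with 1 rpl22a array left out (0.56).

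Set side by side, the median differences from wt of the Gcn4 list were 0.85 in rpl22a, 0.63 in rpl12a, 0.50 in rpl14a, 0.23 in rpl12b and 0.05 in rpl22b, and -0.13 to -0.02 in the other 6, all sharing the same wt arrays. For arginine genes they were 1.75 in rpl22a, 1.07 in rpl14a, 0.89 in rpl12a and -0.17 in rpl22b. For the phosphatase and polyphosphate list they were -0.47 in rpl22a and -0.52 in rpl7a, -0.44 to -0.31 in rpl12a, rpl12b, rps0a, rps0b, rps18a and rps18b, 0.04 in rpl22b, 0.13 in rpl7b and 0.92 in rpl14a, so a median below 0 was not particular to rpl22a. Large subunit assembly genes ranked sixth of 11 in rpl22a, at 0.32, in a range of -0.06 to 0.65 over the other deletions. A direct contrast with rpl12a, whose arrays correlated most highly with those of rpl22a, was added after the data were seen. It called 15 probe sets (0.162%), 10 higher (0.108%) and 5 lower (0.0539%), with 515 at an unadjusted p under 0.05. ARG7 was among them (1.00, limma adjusted p = 0.0304), as were RPL22A (-7.42) and RPL22B (2.78), while no other Gcn4 or arginine list gene passed, and the median of the Gcn4 list was 0.37.

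**Figure D4:**
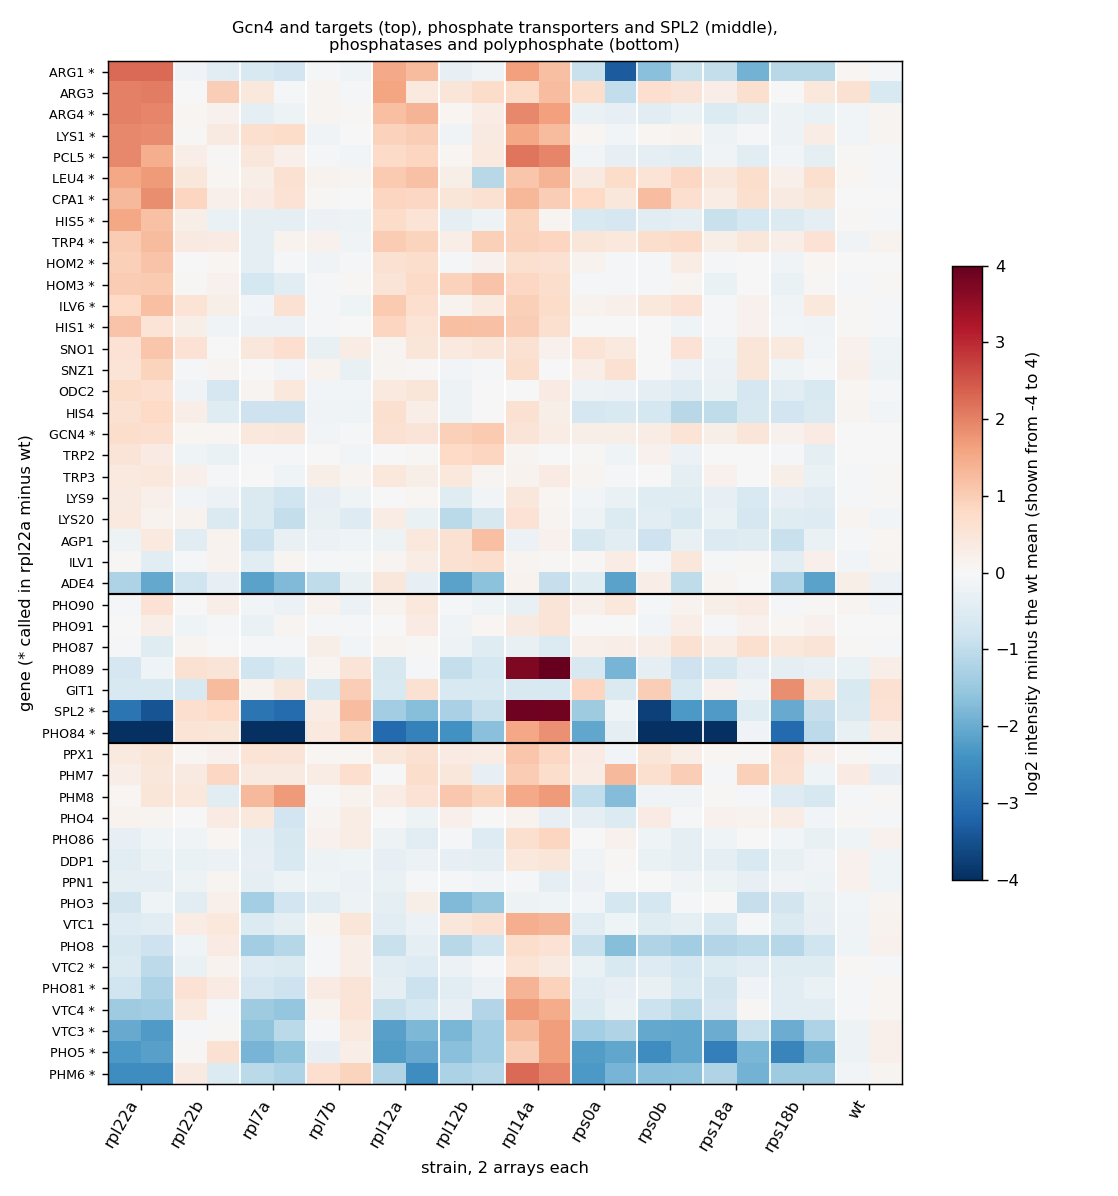
Heat map of log2 intensity minus the wt mean (colour, -4 to 4) for the Gcn4 list, the phosphate transporters with SPL2 and the phosphatase and polyphosphate list (rows, genes; * marks genes called in rpl22a against wt) over all 24 arrays (columns), with rpl22a first and wt last. The Gcn4 list has medians of 0.85 in rpl22a, 0.63 in rpl12a and 0.50 in rpl14a, and the phosphatase list -0.47 in rpl22a, -0.52 in rpl7a and 0.92 in rpl14a.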

How the data were processed

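RNA of 12 yeast strains, 2 biological replicates each, was hybridised to 24 arrays. The deposited values are 1 linear intensity per probe set and array, with no statement, in the sources used here, of how probes were summarised or scaled. Of 9335 probe sets 60 controls were set aside, and of 9275 tested 6504 carry 1 gene name, 328 several and 2443 none. All 6504 names matched RefSeq's genes (assembly R64), which gave current names and neighbours; since no genome build is named for the arrays, no coordinates are given.

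Intensities under 3.6, the 10th percentile, were raised to it (9.89% of values), log2 transformed and quantile normalized. One limma fit (3.58.1, R 4.3.3, data.table version 1.17.8) of 12 strain means, with 12 residual degrees of freedom and Benjamini-Hochberg adjustment over 9275 probe sets, gave all tests, two-sided at a threshold of 0.05. The precision is limited by 2 arrays a strain and rests on a spread pooled over strains. A probe set is not above background in a strain when it exceeds the background in neither array. "At least" folds set the brighter strain's mean over all its arrays against the dimmer one's mean of, per array, the higher of the lowest signal above background and its own, on normalized log2 values. Genes with several probe sets (315 of 5656) enter lists by the brightest.

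Members and the 46 lists, with 2 more from RefSeq gene types added later, were chosen with earlier results of these data known. Named were RPL22A, RPL22B and 5 neighbours on each side; the 12 highest and 12 lowest called probe sets with 1 name and no overlap against wt, and 5 and 5 in the other contrasts; and up to 4 called members of each list. Other list members given with a value were named after the values were seen. Replicate numbers were not taken to pair the strains: deviations from the strain means correlated at -0.01 to 0.19 over 66 strain pairs, over 0.1 in 19 (rpl22a with wt 0.02, with rpl22b 0.08, with rpl12a 0.16). Alternatives covered normalization, floor, a filter on dim probe sets, limma's trend option, the replicate block and left-out arrays. The fit was tested on simulated data.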

Additional observations from a re-analysis of the deposited data

Results flagged for a closer look

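These values were singled out because the effects of losing RPL22A and of losing RPL22B differed, as tested by the direct contrast of rpl22a with rpl22b in the limma fit. That contrast called 262 probe sets. The log2 differences, rpl22a minus rpl22b, were 9.04 for RPL22B and -7.56 for RPL22A, the deleted genes themselves, both called with any of the 4 arrays left out. RPL22B was not above background in rpl22b, so its value is set by the floor and stands for at least 160-fold higher. ARG1 of arginine synthesis differed by 2.55, ARO5 by 2.46, the mitochondrial gene COB by 2.38 and ARO10 of aromatic amino acid breakdown by 2.31. On the lower side were the phosphate genes PHO84 at -5.64 and SPL2 at -3.92, the mating gene FIG1 at -3.51 and the ribosomal protein gene RPL7B at -3.18. The value of FIG1 is likewise no measured size, since it rests on rpl22a intensities of 3.1 and 2.7, not above background, against 69.6 and 22.1 in rpl22b. ARO5, ARO10 and SPL2 stayed called with any of the 4 arrays left out, COB and RPL7B with 2 of them, FIG1 with 1, and ARG1 and PHO84 with none.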

How the results depend on the processing

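No called difference of a named gene changed sign under an alternative that was run, though some list medians near 0 did, and both limma's trend and robust options and a filter on the dimmest 25% of probe sets kept every count within 1.5 times. For rpl22a against wt, 227 calls became 82 without normalization, 374 with the replicate number as a block, 1 in a fit of the 4 arrays alone (1424 at an unadjusted p under 0.05) and 97 to 248 with 1 array left out. For rpl22a against rpl22b, 262 became 74 without normalization, 159 with median centring, 412 with the replicate block, 0 in the 4 arrays alone (1103 unadjusted) and 106 to 260 with 1 array left out. Against the mean of the other deletions, 167 became 62 without normalization, 105 with median centring, 273 without rpl7a, rpl12b and rpl14a in the mean, and 73 to 156 with 1 rpl22a array left out. Against rpl12a, 15 became 30 with the floor at the 25th percentile and 2 in the 4 arrays alone. RPL22A at -7.49 was not called in the 4 arrays alone (adjusted p = 0.187), nor was RPL22B at 1.48 (adjusted p = 0.208), where 2 residual degrees of freedom remain; RPL22B was 1.17 without normalization. Of 10 neighbours 0 to 1 passed with an array left out, the 1 being SHM2 without rpl22a replicate 1. List members called, 69 of 996, became 23 without normalization, 0 in the 4 arrays alone and 32 to 56 with an array left out. The block changed no other call on the named genes. Apart from the smaller fits, the cause was not tested. Dim probe sets limit the folds: 9.89% of values lay at the floor.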

Other observations

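Genes in no list, chosen after their values were seen, were among the calls of rpl22a against wt. RIB3, of riboflavin synthesis, had intensities of 873.5 and 816.3 in rpl22a, against 368.1 and 437.0 in wt (1.29, limma adjusted p = 0.0062), and RIB5, of the same pathway, had 224.2 and 164.2 in rpl22a, against 95.7 and 88.5 in wt (1.19, adjusted p = 0.00462). YOR302W, the upstream reading frame that controls CPA1, had 978.7 and 1063.8 in rpl22a, against 320.2 and 400.2 in wt (1.75, adjusted p = 0.000771). MPC2, of the mitochondrial pyruvate carrier, and OAC1, a mitochondrial carrier of oxaloacetate, were also higher (1.06 and 1.04). YOR302W and MPC2 stayed called with any of the 4 arrays left out, and RIB3, RIB5 and OAC1 did not (up to 0.0623, 0.0511 and 0.0657). Without normalization RIB3, RIB5, MPC2 and OAC1 were not called (0.122 to 0.356).

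Among the lower genes in no list, also chosen after their values were seen, AAC3, an ADP/ATP carrier, had intensities of 56.5 and 48.6 in rpl22a, against 139.7 and 170.5 in wt (-1.43, limma adjusted p = 0.00106). HEM13, of heme synthesis, had 71.5 and 76.8 in rpl22a, against 184.4 and 188.4 in wt (-1.18, adjusted p = 0.0133). Over the other deletions AAC3 read 34.1 to 158.2 and HEM13 75 to 143.2, so HEM13 was below wt in all of them. PTR2, the di- and tripeptide transporter, had 205.8 and 331.6 in rpl22a, against 886 and 1009.3 in wt (-1.58, adjusted p = 0.0467). AAC3 stayed called with any array left out, HEM13 with 1 and PTR2 with none (up to 0.0995 and 0.214).

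Of the 227 called probe sets 38 carry no gene name here, 25 higher and 13 lower. The set 10271_at read 4.3 and 8.3 in rpl22a, against 99.2 and 130.1 in wt, with 85.3 to 146 in the other deletions. It was not above background in rpl22a and at least 11.3-fold lower than in wt (adjusted p = 6.76e-07). The set 5642_at read 578.5 and 457.8 in rpl22a, against 97.1 and 113.8 in wt, with 78.3 to 312 in the other deletions (2.41, adjusted p = 2.48e-07). The set 3982_at read 7789.3 and 7262.2 in rpl22a and 6609.5 to 9578.8 in the other deletions, against 0.8 and 0.6 in wt, not above background there, and was at least 815-fold higher in rpl22a than in wt. All 3 stayed called with any array left out.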
